A study of Rattus norvegicus with 3 samples.

Results

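H3K9me3 peaks that stand alone on the chromosomes were described in rat round spermatids, the haploid germ cells between meiosis and elongation. A peak of the H3K9me3 list on chromosomes 1 to 20 was taken as isolated when no other peak of the list lay within 50 kb of either edge and no H3K4me3 peak overlapped it by 1 bp or more. The members were thus chosen by the positions of peaks in both lists, and not by score or width. Of the 48148 H3K9me3 peaks on these chromosomes, 3155 were isolated (6.55%), and the whole list held 49591 peaks. The samples came from testis of untreated Sprague-Dawley rats, and the labels give neither the age nor the number of animals. Chromatin immunoprecipitation followed by sequencing used a rabbit antibody against H3K9me3 (ab8898) and a mouse antibody against H3K4me3 (ab12209), with 1 library each. The study also made a library with no antibody. Each mark gave 1 deposited list of peaks. The labels do not say which library served as the control. The word negative in the naming of both lists matches the title of the library without antibody and is read as that control. Were it instead a name for calls in which the roles of precipitate and control were swapped, the positions below would describe an excess of the control.

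H3K9me3 is the trimethylated form of lysine 9 of histone H3. It is laid down by enzymes such as SETDB1 and the SUV39H proteins, is bound by HP1 proteins, and is typical of constitutive heterochromatin, of satellite repeats, of silenced transposable elements and of some gene clusters. Heterochromatin tends to spread along the fibre, so the mark is often found in broad blocks, of which a lone peak is the opposite form. H3K4me3 marks the start sites of active or poised genes and served here as a second coordinate system.

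The 3155 isolated peaks were small and of low score. The score is the authors' value for each peak, and no source used here states its definition. Within a list it ranks peaks, and its lowest value in both lists was 30. The isolated peaks had a median score of 37.6 (95% interval of the median 37.1 to 37.99), with quartiles of 32.8 and 48.8. H3K9me3 peaks that had a neighbour within 50 kb and lay off H3K4me3, 42864 in number, had a median score of 62.7. A score under 50 was held by 2416 isolated peaks (76.6%, Wilson interval 75.1 to 78.0%) and by 38.1% of the neighboured peaks. Scores of 100 or more were rare, with 124 isolated peaks (3.93%) against 30.9% of the neighboured ones, and 15 isolated peaks reached 200. These values come from the list that chose the members, from 1 library of unknown depth. They are a description, no test was made, and all intervals cover counting error only and treat peaks as independent.

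Isolated peaks had a median width of 689 bp (683 to 697) with quartiles of 601 and 853 bp. Neighboured peaks off H3K4me3 had a median of 956 bp, with quartiles of 699 and 1527 bp. Only 33 isolated peaks were wider than 2 kb (1.05%), against 15.5% of the neighboured ones. None exceeded 5 kb, a width passed by 689 of the neighboured peaks. The isolated peaks held 2.45 Mb of the 63.8 Mb covered by H3K9me3 on these chromosomes, or 3.84%, which is less than their share of the peak number.

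The difference in width followed the difference in score. Among peaks with a score from 30 to 35, isolated peaks had a median width of 616.5 bp (613 to 621) and neighboured ones 626 bp. From 50 to 75, both medians were 958 bp. From 100 to 200, the medians were 1607 bp (1447 to 1698) and 1647 bp. In the class of 200 and above, 15 isolated peaks had a median of 2205 bp (1251 to 3344) against 3047 bp. Within a score class, isolated peaks were thus at most slightly narrower than the others, apart from the highest class, where the interval was wide. That class has no upper limit. Its isolated scores ended at 481 and its neighboured ones at 3100, so its widths were not compared at equal score. Score and width rose together among the isolated peaks (Spearman's rho 0.62 across 3155 peaks of 1 library, a description).

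**Figure D1:**
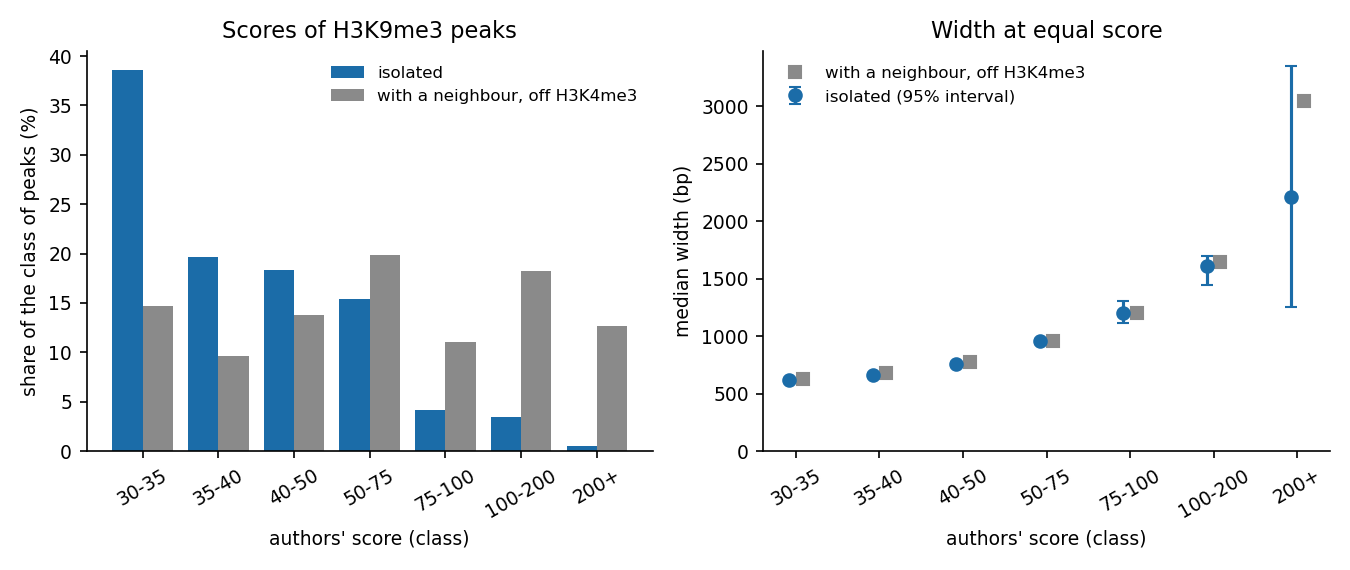
The left panel gives the share of isolated peaks and of neighboured peaks off H3K4me3 (both in %) in each class of the authors' score, and the right panel their median width in bp by the same classes, with 95% intervals for the isolated peaks. Isolated peaks crowd in the class of 30 to 35, which holds 38.6% of them against 14.7% of the neighboured peaks, while the widths of both lie close together up to a score of 200.

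Isolation became rarer with every step in score. In the class from 30 to 35, 1218 of 7596 autosomal peaks were isolated (16.0%, 15.2 to 16.9%). The share was 12.9% from 35 to 40, 8.81% from 40 to 50, 5.29% from 50 to 75, 2.61% from 75 to 100 and 1.31% from 100 to 200. At 200 and above, 15 of 6728 peaks were isolated (0.223%, 0.135 to 0.368%). A strong H3K9me3 peak with no other listed peak within 50 kb was therefore a rarity. A second peak close beside it also counted as a neighbour.

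When autosomal peaks were joined into runs wherever the gap was 50 kb or less, 6588 runs resulted. Of these, 3210 runs held a lone peak (48.7%), which is the isolated set together with 55 lone peaks on H3K4me3. A further 1079 runs held 2 peaks. The median gap within these pairs was 4.78 kb, and in 284 of them (26.3%) it was under 1 kb. Whether such close peaks were parts of a single site was not tested. At the other end, 161 runs of more than 50 peaks (2.44%) held 49.1% of all peaks and 58.5% of the covered length, and the largest had 1023 peaks. Counted as places rather than as peaks, lone sites outnumbered each of the other size classes of runs. All runs with several peaks together still outnumbered the lone sites.

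The lone peaks stood at the end of a gradient and not apart from it. The median score was 37.7 (37.2 to 38.1) for lone peaks, 40.7 (39.8 to 41.6) in runs of 2 peaks, 44.4 in runs of 3 to 5, 50.7 in runs of 6 to 10, 62.8 in runs of 11 to 50 and 82.8 (81.5 to 84.0) in larger runs. The median width rose in the same order, from 688.5 bp through 743, 782, 838.5 and 927.5 to 1125 bp. The share of peaks with a score under 50 fell from 76.0% for lone peaks to 66.7% in runs of 2 and 27.6% in the largest runs.

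**Figure D2:**
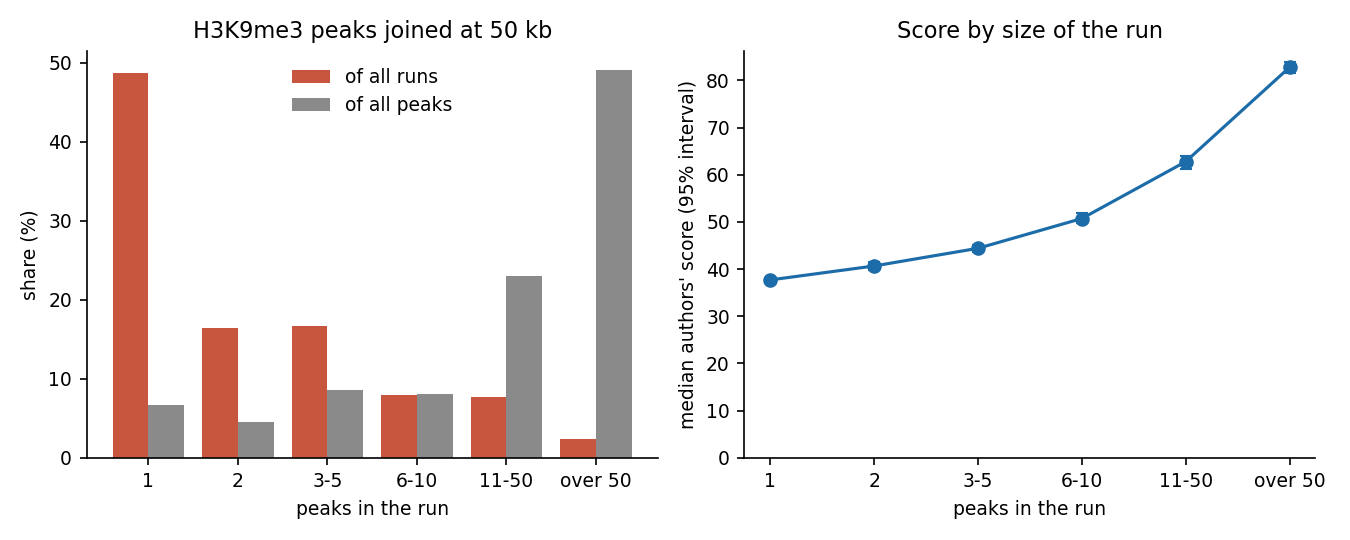
The left panel gives the share (%) of runs and of peaks by the number of H3K9me3 peaks in a run joined at 50 kb, and the right panel the median authors' score of the peaks with its 95% interval. Lone peaks make up 48.7% of runs but 6.67% of peaks, and the median score climbs from 37.7 for them to 82.8 in runs of over 50 peaks.

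Peaks lay close to the distance limit on both of its sides, and their ranges of score overlapped. Just inside it, 41 isolated peaks had their nearest neighbour between 50 and 51 kb away, with a median score of 42.95 (30.3 to 124) and a median width of 724 bp. Just outside it, 25 peaks off H3K4me3 had theirs between 49 and 50 kb away, with a median score of 37.4 (30.4 to 103) and a median width of 672 bp.

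Most isolated peaks lay well beyond the required distance. The nearest H3K9me3 peak was a median of 135 kb away (129 to 141), with quartiles of 79.6 and 259 kb. The farther of the flanking peaks was a median of 414 kb away. For 1980 isolated peaks (62.8%) the nearest neighbour was over 100 kb away, for 297 (9.41%) over 500 kb and for 60 (1.90%) over 1 Mb.

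The nearest peak had a median score of 38.7 (38.3 to 39.3), close to that of the isolated peaks. For 1688 isolated peaks (53.5%, 51.8 to 55.2%) the nearest peak was itself isolated, where isolated peaks made up 47.9% of all runs. For 1266 (40.1%) it belonged to a run of 2 to 10 peaks, which were 41.1% of runs. A run of more than 10 peaks was nearest for 171 (5.42%), and such runs were 10.2% of all. The first and second of these shares were thus near the make-up of the runs.

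Long stretches held nothing but isolated peaks. Because isolated peaks made up 47.9% of all runs, series of them also arise from that share alone. Whether the longest series went beyond it was not tested. There were 1460 series, of which 711 held 1 peak. The longest series had 13 in a row, over 11.3 Mb of chromosome 8 (chr8:49448772-60736835 in rn6), with scores from 30.04 to 76.1 and a median of 32.8. The next had 12 peaks each, over 8.46 Mb of chromosome 10 (chr10:63564585-72024579) with a median score of 35.9, and over 7.42 Mb of chromosome 17 (chr17:74079191-81500760) with a median of 43.99. No peak in these 3 series had a score above 93.0.

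In windows of 1 Mb, isolated peaks were spread thinly. Of 2626 windows on chromosomes 1 to 20, 1747 held at least 1 isolated peak (66.5%). There were 847 windows with 1, 527 with 2, 265 with 3, 83 with 4 and 23 with 5 isolated peaks. The most in a window was 6, in the windows from 18 to 19 Mb of chromosome 14 and from 166 to 167 Mb of chromosome 3, each with 8 H3K9me3 peaks in all. In 582 of the 2307 windows with any H3K9me3 peak (25.2%), every peak was isolated. Of these 582 windows, 307 held a single H3K9me3 peak.

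Few isolated peaks lay inside broad H3K9me3 domains, taken as runs of at least 3 windows of 1 Mb with over 5% covered. The 146 domain windows made up 5.56% of all windows and held 43.2% of the autosomal H3K9me3 peaks, but 54 isolated peaks (1.71%). A low share was set in advance by the rule. Sequence crowded with peaks leaves little room for a peak without a neighbour within 50 kb. With 54 members inside, isolation at 50 kb still did not place every member outside a domain. In the proximal domain of chromosome 13, between 1 and 35 Mb, 7 of 7330 peaks were isolated. On the remainder of that chromosome beyond 35 Mb, 98 of 352 were (27.8%). The first 3 Mb of the chromosomes held 42 isolated peaks among 2981, and the last 3 Mb held 83 among 521 (15.9%).

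Isolated peaks were spread more evenly over the chromosomes than the whole list. The rule itself favours this, because it removes crowded peaks wherever they lie, and its part in the contrast was not tested. Isolated peaks numbered between 0.949 per Mb on chromosome 13 (95% Poisson interval 0.778 to 1.15) and 1.56 per Mb on chromosome 12 (1.24 to 1.93), a ratio of 1.64. All H3K9me3 peaks ran from 7.13 per Mb on chromosome 11 to 67.6 per Mb on chromosome 13, a ratio of 9.48. Most of this contrast rested on chromosome 13. Without it, the highest density of all peaks was 25.3 per Mb on chromosome 12, and the ratios were 3.55 for all peaks and 1.51 for isolated ones. Chromosome 11, the poorest in H3K9me3, carried 1.205 isolated peaks per Mb (0.989 to 1.45), close to the 1.207 per Mb of chromosome 1. As a share of the chromosome's own peaks, isolated ones were therefore most frequent on chromosome 11 (16.9%) and chromosome 10 (13.2%) and least frequent on chromosome 13 (1.40%). Across the 20 chromosomes, the densities of isolated and of all peaks had a Spearman's rho of 0.05, given as a description because both come from the same library. With isolated peaks counted per Mb of sequence over 50 kb from any neighboured peak, rho was 0.39.

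The spread over chromosomes was less even without the low scores. When only H3K9me3 peaks with a score of at least 50 entered, as members and as neighbours, 1700 peaks were isolated. Of these, 739 were isolated in the whole list too. Their density then ran from 0.346 per Mb on chromosome 10 to 1.08 per Mb on chromosome 12, a ratio of 3.12, while all peaks of that score had a ratio of 14.1. This setting was added after the results were seen.

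**Figure D3:**
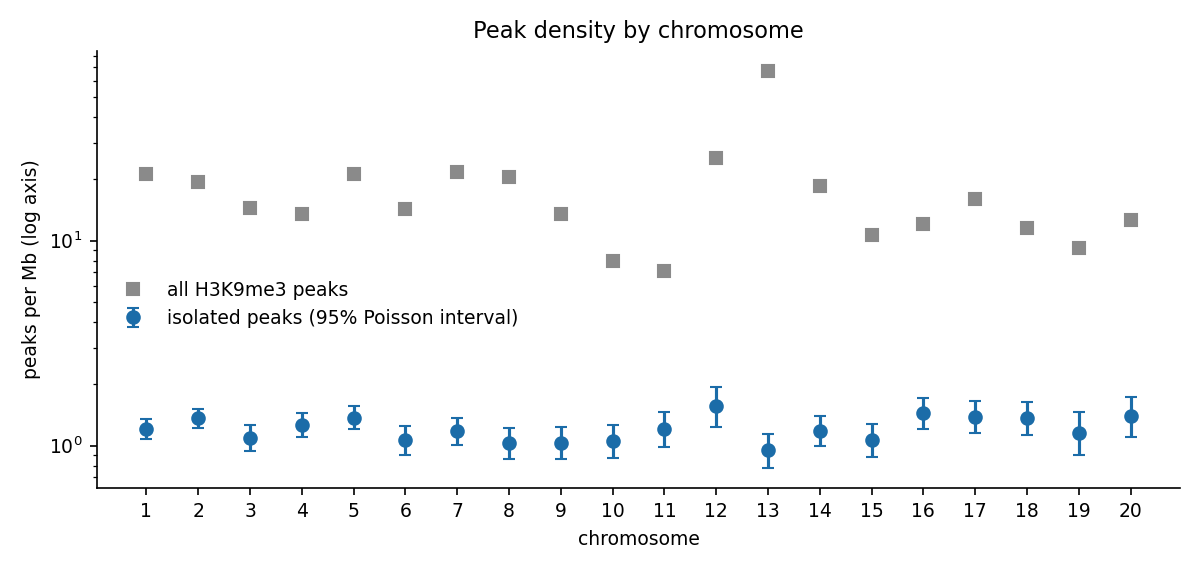
Density in peaks per Mb (log axis) of isolated H3K9me3 peaks, with 95% Poisson intervals, and of all H3K9me3 peaks on chromosomes 1 to 20. The isolated peaks stay between 0.949 and 1.56 per Mb while the whole list spans 7.13 to 67.6 per Mb.

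Part of each chromosome was closed to isolated peaks by the rule itself. Sequence more than 50 kb from every neighboured H3K9me3 peak, called the open span here, came to 2036 Mb, or 77.9% of the 2615 Mb of chromosomes 1 to 20, with each chromosome taken up to its last peak. In the open span there were 1.55 isolated peaks per Mb (1.496 to 1.604). By chromosome the value ran from 1.198 on chromosome 10 (0.992 to 1.43) to 2.37 on chromosome 12 (1.88 to 2.94). On chromosome 13, the open 67.1% of the sequence carried 1.41 per Mb (1.16 to 1.71), near the overall value. Gaps and unmappable sequence were not taken out of these lengths.

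The scores of isolated peaks also varied little between chromosomes. The list starts at a score of 30, and 38.6% of isolated peaks had a score under 35, so their medians had little room downwards. The part of this floor in the small spread was not tested. Their median ran from 36.0 on chromosome 10 (34.95 to 38.1) to 39.6 on chromosome 12 (35.7 to 42.8). Neighboured peaks off H3K4me3 had medians from 42.4 on chromosome 20 to 89.0 on chromosome 13. On every one of the 20 chromosomes the isolated median was below the neighboured one. On chromosome 13 the isolated median was 37.1 (34.9 to 41.3), inside the range of the other chromosomes, although its neighboured peaks had the highest scores.

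Density along the chromosome varied less for isolated peaks than for the list, which the rule favours by removing crowded peaks. With each chromosome divided into 10 parts of equal length from its start in rn6, all H3K9me3 peaks fell from 46.1 per Mb in part 1 to 7.60 per Mb in part 9. Isolated peaks numbered 0.987 per Mb (0.870 to 1.11) in part 1, the lowest value, and 1.36 per Mb (1.22 to 1.51) in part 4, the highest. Per Mb of open span, part 1 held 1.61 (1.42 to 1.82), part 3 held 1.78 (1.60 to 1.98) and part 8 held 1.30 (1.16 to 1.46).

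Most isolated H3K9me3 peaks lay over 100 kb from the nearest H3K4me3 peak, and so did most of the open span. By midpoint, 27.1% of isolated peaks and 26.5% of the open span lay 100 to 250 kb away. The shares were 24.9% and 23.1% from 250 to 500 kb, and 17.1% and 16.0% from 500 to 1000 kb. Beyond 1000 kb they were 6.62% and 5.55%. Measured edge to edge, the nearest H3K4me3 peak was a median of 240 kb away (229 to 254), with quartiles of 103 and 479 kb. Neighboured H3K9me3 peaks off H3K4me3 had a median of 316 kb (311 to 320), with quartiles of 104 and 722 kb. At short range the order was the opposite. Within 10 kb of an H3K4me3 peak lay 77 isolated peaks (2.44%, 1.96 to 3.04%) but 6.32% of the neighboured ones (6.09 to 6.55%). Within 100 kb the shares were 24.3% for both.

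Isolated peaks were sparser near H3K4me3 than far from it. The midpoints of isolated peaks were counted in the open span by distance from the nearest H3K4me3 peak. Between 1 and 10 kb there were 67 in 64.6 Mb, or 1.04 per Mb (0.803 to 1.32). The density was 1.23 per Mb from 10 to 25 kb, 1.30 from 25 to 50 kb, 1.41 from 50 to 100 kb and 1.59 from 100 to 250 kb. Beyond 1 Mb from any H3K4me3 peak it was 1.85 per Mb (1.61 to 2.12). The median score was 34.9 (33.1 to 40.8) from 1 to 5 kb, 35.4 (32.4 to 38.6) from 5 to 10 kb, 38.3 (36.5 to 40.1) from 10 to 25 kb, 36.2 (35.04 to 37.99) from 25 to 50 kb and 38.6 (36.2 to 41.9) beyond 1 Mb. The lowest of these medians were those within 10 kb.

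**Figure D4:**
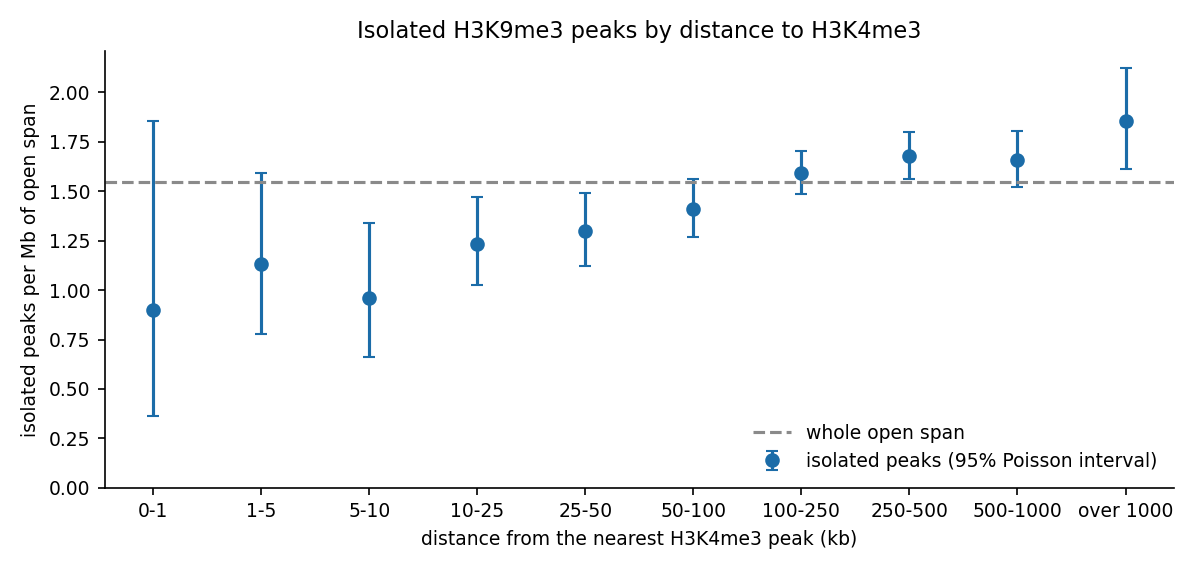
Isolated H3K9me3 peaks per Mb of open span by distance (kb) of their midpoint from the nearest H3K4me3 peak, with 95% Poisson intervals; the dashed line is the 1.55 per Mb of the whole open span. Density lies at 0.958 per Mb between 5 and 10 kb and at 1.85 per Mb beyond 1000 kb; the class from 0 to 1 kb is lowered by the rule, which removes peaks that overlap H3K4me3.

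Within 50 kb of H3K4me3 the density was 1.197 per Mb (1.08 to 1.32), and beyond it 1.62 per Mb (1.56 to 1.68). The ratio was 0.740 (exact interval 0.665 to 0.823), and the density was lower near H3K4me3 on 19 of 20 chromosomes. Part of this comes from the rule. With the 55 lone peaks on H3K4me3 put back, the ratio was 0.843 (0.761 to 0.932), lower on 16 of 20 chromosomes. Among isolated peaks with a score of 50 or more the ratio was 0.531 (0.408 to 0.681), and 0.762 (0.611 to 0.942) with the lone peaks on H3K4me3 put back. For scores under 50 these values were 0.807 and 0.869. Genes, mappability and assembly gaps were not measured along this distance, and their part in the result was not tested.

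Of the H3K4me3 peaks off H3K9me3, those nearest to isolated H3K9me3 peaks had a somewhat lower median score. The 3155 isolated peaks had 1917 different H3K4me3 peaks as their nearest. Of these, 1773 lay off H3K9me3 and had a median score of 38.5 (37.5 to 39.4). All 5184 autosomal H3K4me3 peaks off H3K9me3, which include these, had a median of 43.7 (42.8 to 44.7). The quartiles overlapped widely, at 32.7 and 61.1 against 34.0 and 74.4. The H3K4me3 peaks nearest to neighboured H3K9me3 peaks were not compared.

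The share of peaks on H3K4me3 was lower among lone than among neighboured H3K9me3 peaks, while at equal score below 200 the intervals of both shares met in every class. Of the 3210 lone peaks, 55 overlapped H3K4me3 (1.71%, 1.32 to 2.22%), against 2074 of 44938 neighboured peaks (4.62%, 4.43 to 4.81%). In the score class from 30 to 35 the shares were 0.733% (0.386 to 1.39%) and 0.848% (0.650 to 1.10%). From 50 to 75 they were 2.22% (1.24 to 3.93%) and 1.79% (1.53 to 2.09%). From 100 to 200 they were 6.84% (3.51 to 12.9%) and 4.35% (3.93 to 4.82%). At 200 and above, 10 of 25 lone peaks lay on H3K4me3 (40%, 23.4 to 59.3%), against 18.8% of the neighboured ones (17.9 to 19.7%). This highest class has no upper limit, so it does not compare peaks at equal score. The difference was not tested, because the peaks come from 1 library per mark.

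Those 55 peaks, which the definition leaves out, had higher scores than the isolated set. Their median score was 52.1 (40.7 to 71.7) and their highest was 3100, but their median width of 685 bp was that of the isolated peaks. The leading ones were chr4:6877407-6879744 and chr2:193571407-193573476, both with an H3K9me3 score of 3100. Exactly 3100 was also the highest score in runs of 2 and of 3 to 5 peaks. Why this value recurs is not stated, and the highest score of the autosomal peaks was 3217. No isolated peak came near a score of 3100.

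The isolated peak with the highest score was chr16:82828673-82833618, with a score of 481. It was also the widest, at 4946 bp. The nearest H3K9me3 peaks lay 342 kb before and 713 kb behind it, and the nearest H3K4me3 peak was 327 kb away. The second, chr5:20819672-20823015, had a score of 335 and a width of 3344 bp, with neighbours at 71.4 and 59.4 kb. The third, chr12:52707568-52709772, had a score of 312 and was the last H3K9me3 peak of its chromosome. The fourth, chr1:23084438-23087950, had a score of 310 and a width of 3513 bp.

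The next 6 by score lay between 217 and 242. A pair among them stood out by small width: chr9:7262905-7263601 had a score of 242 over 697 bp, and chr12:21696000-21696493 had a score of 235 over 494 bp. The other 4 were between 1251 and 2891 bp wide, at chr17:62984254-62986705, chr1:65675968-65678858, chr7:62581609-62583920 and chr2:120519941-120521191. Both chr1:65675968-65678858 and chr2:120519941-120521191 lay close to an H3K4me3 peak, at 21.2 and 22.3 kb. The widest peaks were mostly the same ones: 4 of the 5 widest were among the 10 highest scores, and the remaining one, chr7:91454371-91457822, had a score of 209 over 3452 bp.

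The most remote peaks were ordinary in score. The peak chr9:18666049-18666697 had no H3K9me3 peak for 3791 kb before it and 2440 kb behind it, and its score was 37.8 over 649 bp. The next most remote were chr15:57918018-57918795, chr11:58483516-58484557, chr3:122276936-122277593 and chr10:47512522-47513104, whose nearest neighbours were between 1672 and 1751 kb away. Their scores were 37.7, 64.8, 37.1 and 33.3. Over all isolated peaks, score and distance to the nearest neighbour had a Spearman's rho of -0.12.

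The isolated peaks nearest to H3K4me3 had low scores of both marks, with an exception for H3K4me3. The closest, chr15:4655156-4655644, lay 312 bp from an H3K4me3 peak with a score of 291, and its own score was 30.9. The following 4, at chr3:98867857-98868608, chr13:101162912-101163430, chr10:101197075-101197802 and chr12:24268255-24269139, lay 355 to 432 bp from H3K4me3 peaks with scores from 30.6 to 41.9. Their own scores ran from 30.97 to 38.6.

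What lies beneath these peaks in genes or repeats was not analysed here, because the gene table at hand follows the assembly GRCr8 and the peaks are in rn6. The labelled cell type could not be checked against marker genes for the same reason.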

How the data were processed

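The submitters' processing notes name Bowtie 1.2, bcl2fastq, FastQC and the build rn6, with no roles. Per the labels' protocols, the libraries were read as paired ends. The deposited lists hold a position, a name given by the caller MACS and the authors' score per peak. For the score, which is the authors' own, no definition was found, and the caller's settings and the read depth were not stated either, so no limit of detection could be given. Starts are counted from 1. Isolation, distances (edge to edge), runs and open span were computed with Python 3.11.15, numpy 2.4.6, pandas 2.3.3 and scipy 1.17.1, and figures were drawn with matplotlib 3.10.9. The isolation rule and the distances were tested on simulated data and against direct calculation. Intervals are at the 95% level (Poisson for counts, Wilson for shares, order statistics for medians, exact binomial for ratios of densities). Each mark has 1 library, so no p-value was computed. The named regions are the 10 highest scores, the 5 widest, the 5 most remote and the 5 nearest to H3K4me3; other regions were picked with their values in view. The members, the rule and the domain definition were chosen with earlier results of these data known. Peaks on X, Y and unplaced sequences were kept out of the comparisons.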

Additional observations from a re-analysis of the deposited data

Results flagged for a closer look

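The same distance and overlap rule also found peaks outside chromosomes 1 to 20, in data that the comparisons above do not use. On X, 301 of 917 H3K9me3 peaks were isolated (32.8%, Wilson interval 29.9 to 35.9%), with a median score of 35.2 (34.1 to 35.8) and a median width of 656 bp. This is 1.88 per Mb (1.68 to 2.11), above the autosomal range of 0.949 to 1.56, and 2.17 per Mb of open span (1.93 to 2.43), where only chromosome 12 was higher at 2.37. A score under 50 was held by 89.7% of them. On Y, 2 of 16 peaks were isolated. On 79 unplaced sequences, 93 of 510 peaks were isolated (18.2%, 15.1 to 21.8%), with a median score of 36.96. No value was adjusted for the number of copies of X or Y in these haploid cells. Without replicates, none of these differences was tested.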

How the results depend on the processing

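Of 61 values under alternative settings, 37 stayed within the interval of the reported value, or within 1.5 times for numbers of peaks, and 24 moved out of it. A neighbour distance of 25 kb gave 4514 isolated peaks, within 1.5 times the 3155 but outside their Poisson interval of 3046 to 3267. Their median score was 38.2, their median width 699 bp, and 73.7% of scores were under 50. A distance of 100 kb gave 1980 isolated peaks with a median score of 36.7, a median width of 679 bp and 79.4% under 50. With only peaks at or above the list median of 60.4, 1398 were isolated, with a median score of 80.7, a median width of 1219.5 bp, a median of 264 kb to H3K4me3 and 1.86% within 10 kb of it. Their median score was 0.673 times that of neighboured peaks (0.601 in the whole list), the ratio between the densest and the sparsest chromosome was 2.78, and the density near H3K4me3 was 0.560 times that beyond 50 kb. With only scores of at least 50, the 1700 isolated peaks had a median score of 66.5, a median width of 1065 bp, a median of 260.3 kb to H3K4me3, 1.47% within 10 kb of it, and ratios of 0.651, 3.12 and 0.529. Without chromosome 13, the score ratio was 0.643. The cause was not tested, except that removing low scores raises the scores of what is left by construction. In each setting, isolated peaks had lower scores than neighboured ones and were sparser near H3K4me3. Every setting removed all or most lone peaks on H3K4me3, which lowers the density near it, so the settings do not check that part. With those peaks put back, the ratio of the whole list was 0.843 instead of 0.740. No paired analysis was possible because each group has 1 library. Peak detection is limited by a depth that is unknown here.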
